A study of Mus musculus with 14 samples.

Results

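Primitive erythroid precursors lacking the transcription factor KLF1 were compared with wild-type precursors of the same age, using the 3 arrays labelled KLF1-/- (title numbers 5, 6 and 8) and the wild-type arrays with title numbers 1 to 4. These are 7 of the 14 arrays of the series, chosen by genotype label and title number, and the arrays numbered 9 to 15 were not used. All 12393 genes to which a probe set (a group of short probes for a transcript) could be assigned by a single symbol were tested. Both groups were yolk sac cells of mouse embryos at embryonic day 9.5, labelled as strain FVB/N with the cell type given as erythroid cells. The KLF1-/- embryos lacked both copies in every tissue, since they were offspring of KLF1+/- females and were genotyped from a piece of tail. The design text also names KLF1+/- KLF2+/- females and does not say which females gave the wild-type embryos. Erythroid cells were cut from 8 µm frozen sections with a laser and inspected by eye. Each replicate pooled 2 to 4 yolk sacs from 2 litters, and 10 to 20 ng of RNA was amplified in 2 cycles from the poly(A) tail before hybridisation. The p-values below therefore measure the spread between such pools. Fewer cells of a type and less RNA per cell cannot be told apart in captured bulk material.

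KLF1 (erythroid Krüppel-like factor) is a zinc finger protein that binds CACCC-type sequences in promoters and enhancers of red cell genes and mostly activates them. Its best known target is the adult beta globin gene, and others encode blood group proteins, membrane and membrane skeleton proteins, ion channels and enzymes of red cell metabolism. Primitive erythroid precursors form in the yolk sac, enter the circulation while still nucleated, and make embryonic globins before adult ones. The comparison asks which genes depend on KLF1 in these first red cells.

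No single gene passed an adjusted p of 0.05 between KLF1-/- and wild-type precursors. Among the lower genes with the largest differences were some known KLF1 targets. Hbb-b2 (adult beta globin), Kcnn4 (a calcium-activated potassium channel), Icam4 and Ermap (blood group proteins), Pklr (red cell pyruvate kinase), Tfrc (the transferrin receptor) and Cd24a (a surface glycoprotein) were each at least 1 log2 unit lower, with no overlap between the groups. They made up 7 of the 12 lower genes named here, while 28 of the 12393 genes tested were listed as known targets. That list was chosen with earlier results of these arrays known. The size and the lack of overlap were conditions for naming these genes. The counts are therefore a description and not a test. The 15 higher genes named here held none of the known KLF1 targets listed. With 28 listed in 12393 genes, hardly any would fall among 15, so this shows no contrast. The higher genes ranged from 2.08 to 4.23 times the wild-type level. They included Csf2rb2, a beta chain of an interleukin receptor, Gadd45a, a stress-induced growth arrest gene, and Mkrn1, a ubiquitin ligase. The embryonic globins Hbb-bh1, Hbb-y and Hba-x differed by less than 0.1 log2 unit, at levels near the top of the scale, where equal readings do not show equal amounts.

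In limma, 0 lower genes (0%) and 0 higher genes (0%) passed after Benjamini-Hochberg adjustment over all genes. The smallest adjusted p was 0.173, shared by 6 genes, and the smallest unadjusted p was 5.99e-05. Under other settings of limma, quantile normalization called Gadd45a and Mkrn1 as higher, and array weights, which counted KLF1-/- array 8 most and array 6 least, called 7 lower and 8 higher genes. At an unadjusted p under 0.05 there were 81 lower genes (0.654%) and 172 higher genes (1.39%). Those 253 genes compare with 620 that unrelated values with no difference would give on average. Array weights turned this round: 703 lower and 390 higher genes, 1093 in all, more than 620 and mostly lower. Groups without overlap, meaning that all KLF1-/- arrays lay on one side of all wild-type arrays, were seen for 189 lower genes (1.53%) and 198 higher genes (1.6%). Adding a difference of at least 1 log2 unit, a doubling, left 12 lower genes (0.0968%) and 17 higher genes (0.137%). Over all genes the median difference was −0.01 with an SD of 0.22, and 47% lay above 0. Every difference below is KLF1-/- minus wild type in log2 units, on the scale of the authors' normalized values, and every interval is a 95% interval from limma. No direction below is a call unless it says so.

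**Figure D1:**
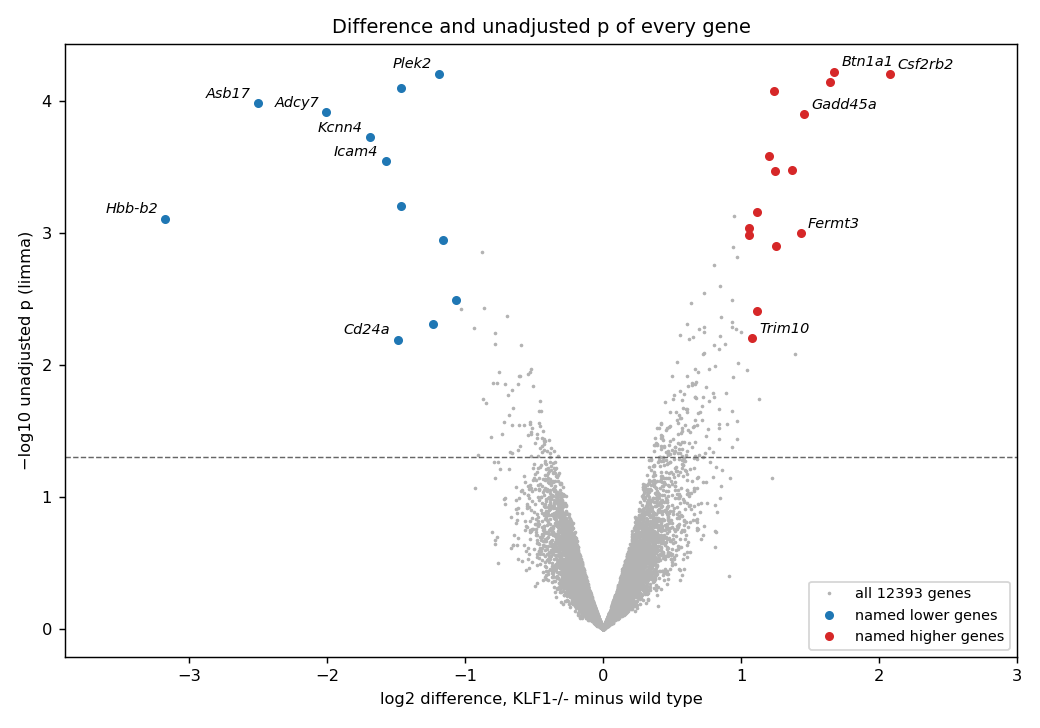
The log2 difference of every gene, KLF1-/- minus wild type, is plotted against −log10 of its unadjusted limma p; grey points are the 12393 genes, blue and red points are the 12 lower and 15 higher genes named here, and the dashed line marks an unadjusted p of 0.05. The named genes stand at the edges of the cloud, from −3.17 for Hbb-b2 to 2.08 for Csf2rb2.

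Markers of red cells and of other yolk sac cells were read on every array. Levels of different probe sets cannot be set against each other, so they give no share of cells. Hbb-bh1 lay between 14.15 and 14.71 on the log2 scale, near the top of the table's range of 3.29 to 14.71, and Gata1, the erythroid master regulator, lay between 10.14 and 11.32. Of the visceral endoderm, the layer that lines the yolk sac, Ttr (transthyretin) lay between 13.68 and 14.22 and Afp (alpha-fetoprotein) between 13.30 and 13.97. The macrophage genes C1qc, at 4.85 to 5.55, and Cybb, at 4.43 to 4.77, were near the bottom of the range. The interquartile range of log2 values was widest on KLF1-/- array 6, at 3.12, and next widest on wild-type array 2, at 2.89, against 2.40 to 2.62 on the other 5. The Gapdh probe sets at the 3′ end exceeded those at the 5′ end, a sign of RNA length, by 4.13 to 5.28 in wild type and 4.34 to 5.06 in KLF1-/-. The ranges of both measures overlapped between the genotypes (exact two-sided permutation p = 0.571 for each, adjusted p = 0.743). The smallest p that this design allows is 0.0571, so this test could not reach 0.05. Eif2s3y, a gene of the Y chromosome, was 4.27 on wild-type array 2 and 6.86 to 9.12 on the other arrays.

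The targeted gene itself still gave a signal. Klf1 read 10.09, 10.60, 10.05 and 10.19 on wild-type arrays 1 to 4 and 9.53, 9.79 and 9.03 on KLF1-/- arrays 5, 6 and 8. The groups did not overlap, yet the difference was only −0.78 (interval −1.29 to −0.27, unadjusted p = 0.0070). The labels do not say whether its probe set lies inside the deleted stretch, so this value does not check them. Klf2, which encodes the related factor studied in the same series, differed by −0.13 (interval −0.62 to 0.35) with overlapping groups. Myc, which the series title names in the same network, read 7.70, 7.39, 7.45 and 6.78 in wild type and 6.72, 7.37 and 6.57 in KLF1-/-. Those groups overlapped, and the difference of −0.45 had an interval from −1.05 to 0.16.

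Promoters of the lower genes are shown because KLF1 acts through CACCC-type elements near start sites. RefSeq promoter windows (250 bases before to 50 after a start, assembly GRCm38.p6) were found for 10 of the 12 lower genes and searched on both strands for CCNCNCCC, a loose form of the element. No window was found for Hbb-b2 or Cd24a. Asb17, Ermap and Pklr held no match in their windows. The matches of Tfrc and Apob lay outside the 120 bases upstream of a start. Printed below, in order of p, are those 120 bases for the other 5 lower genes. Of the 7 known targets, only Kcnn4 and Icam4 are among them. The printed sequences are as follows. They run 5′ to 3′ on the strand of the gene, with matches in capitals (those rich in G are matches on the other strand).

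Plek2: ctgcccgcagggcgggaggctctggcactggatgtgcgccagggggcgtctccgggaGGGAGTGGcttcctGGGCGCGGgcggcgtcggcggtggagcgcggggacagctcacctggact
Mgst3: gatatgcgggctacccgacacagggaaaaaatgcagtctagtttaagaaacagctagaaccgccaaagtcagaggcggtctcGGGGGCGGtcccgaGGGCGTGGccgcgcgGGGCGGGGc
Adcy7: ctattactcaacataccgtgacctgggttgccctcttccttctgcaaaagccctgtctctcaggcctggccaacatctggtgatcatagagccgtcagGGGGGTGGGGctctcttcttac
Kcnn4: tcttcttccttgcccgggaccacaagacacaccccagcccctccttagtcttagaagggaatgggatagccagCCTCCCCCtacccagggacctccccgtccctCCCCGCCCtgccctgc
Icam4: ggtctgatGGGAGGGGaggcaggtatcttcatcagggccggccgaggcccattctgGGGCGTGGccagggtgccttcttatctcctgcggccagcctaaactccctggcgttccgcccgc

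These windows are chr12:78906939-78907058 on the minus strand for Plek2, chr1:167393842-167393961 on the minus strand for Mgst3, chr8:88282872-88282991 on the plus strand for Adcy7, chr7:24370143-24370262 on the plus strand for Kcnn4 and chr9:21029312-21029431 on the plus strand for Icam4. The 2 matches of Adcy7 overlap. The loose element was common everywhere: 9 of 14 promoters of the lower genes held it, against 65.1% of the 12566 promoters of tested genes and 9 of 16 promoters of the higher genes. The stricter form CCNCACCC, which lies within the loose one, was in 5 of 14 promoters of lower genes, 5 of 16 of higher genes and 20.5% of those of tested genes. The GATA factor element AGATAA was in 2 of 14, 1 of 16 and 7.83%. The 14 promoters belong to 10 genes and the 16 to 11 genes. Windows of a gene can share sequence, as those of Tfrc do, so these counts are not of independent promoters. A match is a description of the letters and says nothing of binding.

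The adult beta globin gene gave the largest difference of all. Hbb-b2 read 9.34, 6.83, 9.71 and 7.42 on wild-type arrays 1 to 4 and 5.41, 4.87 and 5.18 on KLF1-/- arrays 5, 6 and 8. Wild-type arrays 1 and 3 were high and 2 and 4 lower, and even the lowest of them lay 1.41 above the highest KLF1-/- array. The difference was −3.17 (SE 0.64, interval −4.62 to −1.72) with an adjusted p of 0.536 in limma. The KLF1-/- readings were near the bottom of the table's range of 3.29 to 14.71. The table has no detection calls, so whether they exceed background is unknown and the size of the difference may be understated. The SD of the 4 wild-type arrays was 1.42, against 0.28 for the 3 KLF1-/- arrays. Its second probe set gave −0.68, also with no overlap. Near-identical beta globin genes could share this signal, so which adult copy was measured is uncertain.

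Embryonic globins overlapped between the groups. Hbb-bh1 read 14.71, 14.65, 14.64 and 14.15 in wild type and 14.25, 14.67 and 14.45 in KLF1-/-, a difference of −0.08 (interval −0.52 to 0.36). Hbb-y differed by −0.05 (interval −0.40 to 0.31) and Hba-x, the embryonic alpha-like globin, by 0.01 (interval −0.66 to 0.68), both named after their values were seen. Hbb-bh1 was the highest value of all on 4 of the 7 arrays, so its reading may be limited by the top of the scale, and no equality of these genes can be read from it. The adult alpha globin probe sets were dim: Hba-a2 was 5.47 to 7.21 in wild type and 5.51 to 5.97 in KLF1-/-, highest on wild-type array 3, and Hba-a1 was under 5 on every array. Of the 6 globin genes measured, 1 was lower at an unadjusted p under 0.05 (0.654% over all genes). The list's median difference was −0.08.

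Surface proteins that carry blood groups formed the next group. Icam4, the Landsteiner-Wiener blood group protein and an adhesion molecule, read 8.15, 8.19, 8.76 and 7.75 in wild type and 6.98, 6.15 and 6.78 in KLF1-/-, 2.98 times lower (difference −1.58, SE 0.28, adjusted p = 0.295). Ermap, which carries the Scianna blood group, read 9.06, 9.96, 8.84 and 9.79 against 8.19, 7.75 and 7.91, a difference of −1.47 (SE 0.29, adjusted p = 0.518). In both genes the 3 KLF1-/- arrays sat well under the lowest wild-type array, by 0.77 for Icam4 and 0.65 for Ermap. Cd24a, a heavily glycosylated surface protein of immature blood cells, read 10.78, 9.87, 10.52 and 9.81 against 7.67, 9.36 and 9.25. KLF1-/- array 5 was far lower than the other 2; the difference was −1.49 (interval −2.44 to −0.53), and −0.94 without that array. Its other probe sets gave −1.54 each. The brighter of them overlapped and read 7.14, 9.02 and 7.81 on KLF1-/- arrays 5, 6 and 8. The dimmer did not overlap and read 7.02, 8.04 and 6.95, so array 8 was low there too.

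Other blood group genes lay the opposite way or overlapped between groups. Art4, the Dombrock carrier, read 5.28, 5.80, 5.67 and 5.88 in wild type and 6.25, 6.39 and 6.30 in KLF1-/-, a difference of 0.65 (unadjusted p = 0.0061) with no overlap. Rhag, the Rh-associated glycoprotein, named after its values were seen, was 8.48 to 9.69 against 9.71 to 9.99, a difference of 0.70 (interval 0.01 to 1.39). Rhd, a Rhesus blood group protein and a known KLF1 target also named afterwards, was lower by overlapping values (−0.52, interval −0.99 to −0.05). Across the 17 measured genes of this list, 4 were lower and 3 higher at an unadjusted p under 0.05. Over all genes the shares were 0.654% and 1.39%. In this list 9 genes lay below 0, and the median was −0.02.

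Channels, transporters and enzymes of red cell physiology were split in the same manner. Kcnn4, the Gardos channel that lets potassium leave red cells, read 9.76, 9.80, 10.68 and 9.96 in wild type and 8.76, 7.91 and 8.42 in KLF1-/-. The lowest wild-type array was 1.00 above the highest KLF1-/- array, and the level was 3.23 times lower (difference −1.69, SE 0.28, adjusted p = 0.232). A dim second probe set of Kcnn4 gave only −0.16, with overlap. Car2, a carbonic anhydrase that hydrates carbon dioxide in red cells, was bright and lay higher instead: 11.36, 11.75, 11.65 and 11.40 in wild type against 12.43, 13.08 and 12.28. Its difference was 1.06 (SE 0.22, adjusted p = 0.613), and without array 6, the highest, it was 0.81. Of 17 genes for ion, water and glucose transport 1 was lower and 2 were higher at an unadjusted p under 0.05. Over all genes the shares were 0.654% and 1.39%. The list's median was 0.04, and its second higher gene was Atp1b2, a sodium pump subunit (0.56, with overlap).

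Pklr, the red cell and liver pyruvate kinase of the last step of glycolysis, read 8.48, 8.26, 8.69 and 8.49 in wild type and 7.94, 7.02 and 7.01 in KLF1-/-. Array 5 lay nearest to wild type, and the difference was −1.16 (SE 0.25, adjusted p = 0.638). The other probe sets of Pklr gave −0.45 and −0.19 with overlap. A pair of enzymes of earlier steps lay on the other side: Pfkm, a phosphofructokinase, was 7.86 to 8.25 in wild type and 8.48 to 8.66 in KLF1-/- (0.50, unadjusted p = 0.012), and Aldoa, aldolase, was 10.79 to 11.14 against 11.24 to 11.63 (0.43, unadjusted p = 0.037). Ldhb, a lactate dehydrogenase subunit, overlapped widely at −0.71. Of 15 glycolytic genes 10 lay above 0, with a median of 0.20.

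Genes of iron uptake and heme synthesis differed in both directions. Tfrc, which takes up transferrin-bound iron, read 10.50, 11.56, 10.93 and 10.88 in wild type and 9.58, 10.26 and 9.87 in KLF1-/-, a difference of −1.07 (SE 0.27, unadjusted p = 0.0032). The nearest arrays were 0.23 apart, and another Tfrc probe set gave −0.60 without overlap and its last gave −0.06 with overlap. Slc25a37 (mitoferrin), −0.75, and Steap3, the endosomal iron reductase, −0.68, overlapped between groups. Tfrc was the only one of 15 iron genes past an unadjusted p of 0.05. Over all genes 0.654% were lower at that p. The list's median was 0.08.

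Heme synthesis genes lay on both sides of 0. Uros (uroporphyrinogen synthase) read 9.73, 10.42, 10.16 and 10.17 against 10.89, 10.86 and 10.70, a difference of 0.70 (unadjusted p = 0.0053). Fech (ferrochelatase), which inserts the iron, read 11.66, 11.81, 11.86 and 11.30 against 12.30, 12.73 and 11.93, a difference of 0.66. The Fech groups were separated by only 0.07, and Urod (0.69) overlapped. Cpox and Ppox, which act between Urod and Fech, differed by 0.05 and 0.16 with overlap (named after their values were seen). Blvrb, a biliverdin reductase of heme breakdown, differed by −0.87 (unadjusted p = 0.018) with overlapping groups, KLF1-/- array 8 being the lowest at 7.27. Alas2, the rate-limiting red cell enzyme and a listed KLF1 target, named after its values were seen, was 8.63 to 10.14 in wild type and 10.07 to 10.11 in KLF1-/- (0.61, interval −0.17 to 1.38). In all, 3 of 18 heme genes were higher and 1 lower at an unadjusted p under 0.05 (1.39% and 0.654% over all genes). The median was 0.07.

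Membrane skeleton genes included some of the most even values. Plek2, a pleckstrin family protein of actin organisation in erythroblasts, read 7.78, 8.26, 8.19 and 8.08 in wild type (8.08 ± 0.21, SD, n = 4) and 6.89, 6.97 and 6.81 in KLF1-/- (6.89 ± 0.08, SD, n = 3). Every KLF1-/- array was at least 0.81 under every wild-type array, and the difference was −1.19 (SE 0.17, adjusted p = 0.173). Dmtn (dematin, an actin bundler) was 7.04 to 7.22 against 5.82 to 6.68, a difference of −0.78, and Slc4a1 (the band 3 anion exchanger) was 11.69 to 12.66 against 10.98 to 11.56, a difference of −0.77. Neither overlapped, although averaging all its probe sets brought the difference of Slc4a1 to −0.45. Tmcc2, a transmembrane coiled-coil protein, lay higher by 0.96, its groups 0.01 apart. Of 17 genes 3 were lower and 2 higher at an unadjusted p under 0.05 (0.654% and 1.39% over all genes). The median was 0.09. Ank1 (ankyrin) and Epb42 (band 4.2 protein), named afterwards, differed by −0.15 and 0.09 with intervals that include 0.

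As a list, known KLF1 targets had the lowest median of the 29 gene lists. Of 28 measured, 18 lay below 0 and 10 above, with a median of −0.20 against −0.01 over all genes. At an unadjusted p under 0.05, 10 were lower and 2 higher, against 0.654% and 1.39% of all genes, and 11 were lower and 2 higher with no overlap, against 1.53% and 1.6%. No list was given a test, and its members were chosen from known biology with earlier results of these arrays in view. The mean of the list was 8.16 to 8.38 on wild-type arrays and 7.82 to 7.89 on KLF1-/- arrays. Beyond the genes above, Add2 (beta adducin) and E2f4 (a cell cycle factor), named after their values were seen, lay lower without overlap by 0.35 and 0.25. Bcl2l1, the survival factor BCL-XL, and Fech went against the list's lead: Bcl2l1 read 8.39, 9.43, 8.59 and 8.90 in wild type and 9.65, 9.80 and 9.55 in KLF1-/- (0.84, unadjusted p = 0.0075).

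**Figure D2:**
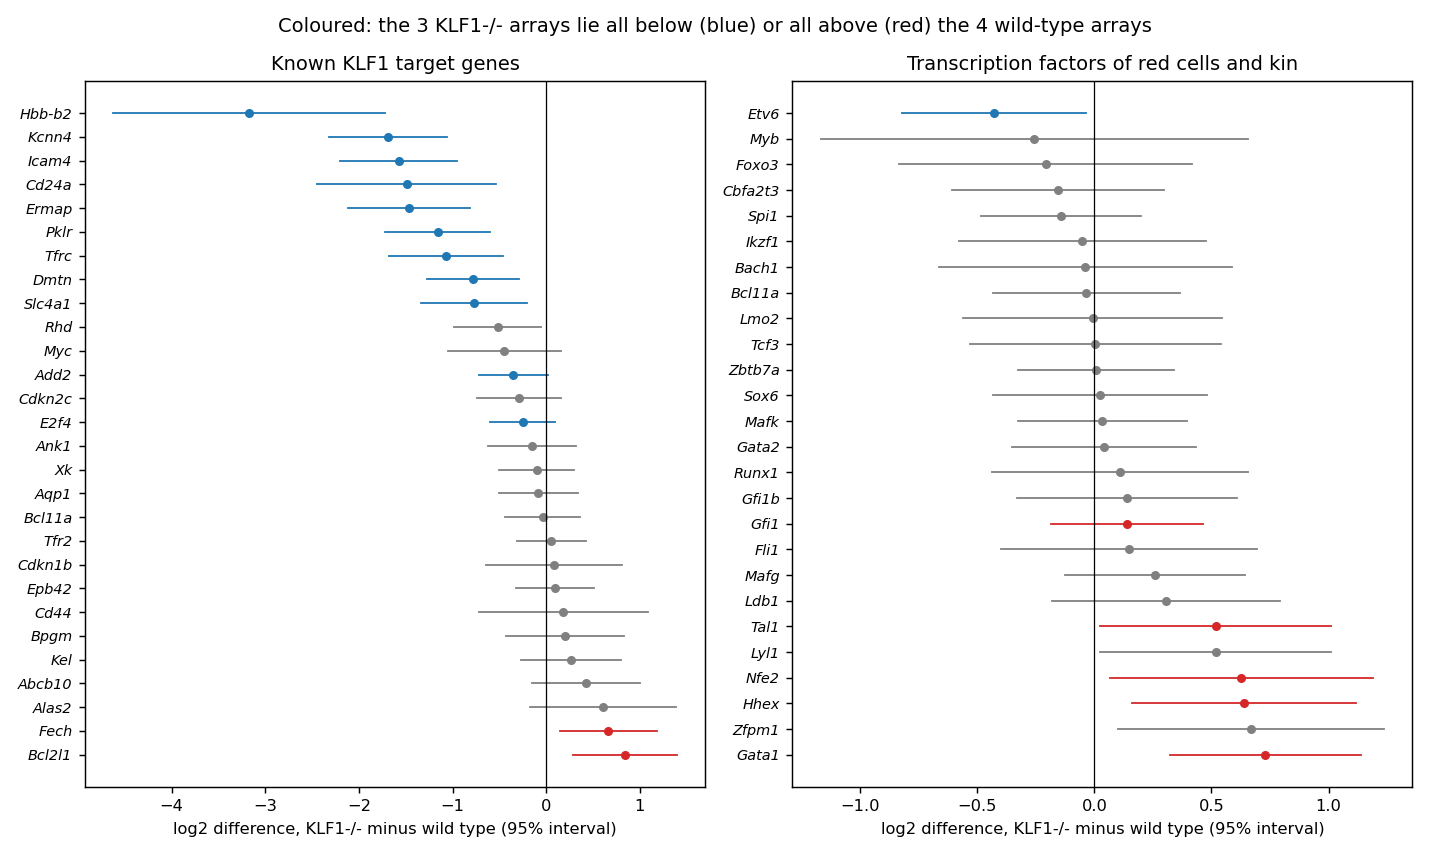
The log2 difference of each measured known KLF1 target (left, 28 genes) and of each transcription factor of red cells and related lineages (right, 26 genes) is drawn as a point with its 95% interval from limma; blue and red mark genes whose groups did not overlap. The left panel runs from −3.17 for Hbb-b2 to 0.84 for Bcl2l1, and the right panel from −0.43 for Etv6 to 0.73 for Gata1.

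Some regulators of the red cell lineage, none of them called, lay higher without overlap. Gata1, the lineage's zinc finger master regulator, read 10.14, 10.55, 10.31 and 10.45 in wild type and 11.11, 11.32 and 10.85 in KLF1-/-, a difference of 0.73 (interval 0.32 to 1.14, unadjusted p = 0.0029). Its cofactor Zfpm1 (FOG1) differed by 0.67 and overlapped, with array 8 at 7.40 among the wild-type arrays. Hhex, a homeobox factor of blood and endothelium, read 7.70, 7.69, 7.01 and 7.70 against 8.00, 8.24 and 8.25 (0.64, unadjusted p = 0.014). Nfe2, the leucine zipper partner at globin control regions, read 6.57, 6.67, 6.59 and 5.86 against 6.92, 7.43 and 6.80, and Tal1, the basic helix-loop-helix factor of early blood, was 8.49 to 8.95 against 8.96 to 9.64. Neither overlapped, although the Tal1 groups were 0.01 apart, and the differences were 0.63 and 0.52. Lyl1, a Tal1 relative that lies near Klf1 in the genome, differed by 0.52 with overlap.

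Across the 26 lineage factors, 6 were higher and 1 lower at an unadjusted p under 0.05 (1.39% and 0.654% over all genes), and 5 were higher and 1 lower without overlap (1.6% and 1.53%). Etv6, the lower one at −0.43, was named after its values were seen. The median was 0.04. List means were 7.28 to 7.40 on wild-type arrays and 7.43 to 7.56 on KLF1-/- arrays. Among the 20 KLF and SP family members, Klf7 was higher without overlap (0.38), Klf15 was higher with overlap (0.55), and Sp3 was at −0.90, with 7.49 on KLF1-/- array 5 and 9.12 and 9.20 on arrays 6 and 8. Of the 23 genes near Klf1 in the genome, 1 was higher at an unadjusted p under 0.05 (1.39% over all genes). Their median was 0.01.

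Of the lower genes outside these lists, Mgst3, a microsomal glutathione transferase, read 10.24, 10.12, 10.07 and 9.48 in wild type and 8.74, 8.46 and 8.35 in KLF1-/-. It was 2.75 times lower (difference −1.46, SE 0.22, adjusted p = 0.173), and a dim second probe set gave −0.30. Asb17, an ankyrin repeat and SOCS box protein, read 7.57, 6.46, 8.23 and 6.83 against 4.79, 4.50 and 5.02, a difference of −2.50 (SE 0.38, adjusted p = 0.173). Wild-type arrays 1 and 3 were the highest, as for Hbb-b2, and the KLF1-/- arrays were near the bottom of the table's range, so the size may be understated here too. Adcy7, an adenylyl cyclase that makes cyclic AMP, read 8.90, 8.15, 8.84 and 7.92 against 6.39, 6.98 and 5.97, which was 4.01 times lower (interval of the difference −2.71 to −1.30, adjusted p = 0.173). Its dimmer probe sets gave −0.14 and −0.29 with overlap, and averaging all its probe sets brought the difference to −0.81.

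Apob, an apolipoprotein of the visceral endoderm, completes the 12 lower genes. It read 12.02, 11.44, 10.85 and 10.90 in wild type and 9.52, 10.56 and 10.13 in KLF1-/-, a difference of −1.23 (SE 0.33, unadjusted p = 0.0049). The groups were 0.30 apart. Among 30 visceral endoderm genes measured, Apoa2, another apolipoprotein, was also lower without overlap (−0.66), 20 lay below 0 and the median was −0.10. List means overlapped, at 9.13 to 10.14 on wild-type arrays and 9.30 to 9.81 on KLF1-/- arrays, and the brightest members differed little, Ttr by −0.10 and Afp by −0.14. The part of visceral endoderm RNA in the lower genes was not tested.

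**Figure D3:**
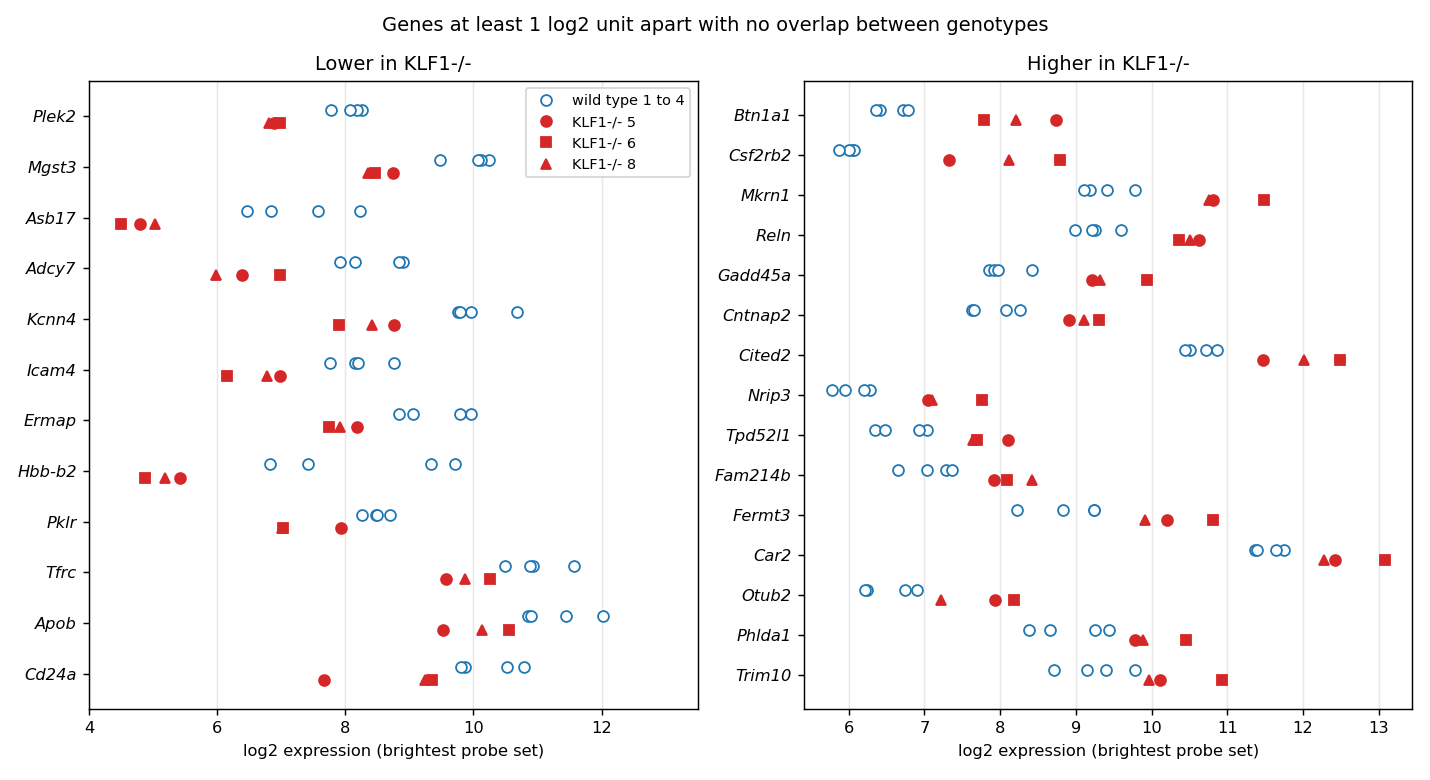
Log2 expression on each array is plotted for the 12 lower genes (left) and the 15 higher genes (right); open blue circles are the 4 wild-type arrays, and red circles, squares and triangles are KLF1-/- arrays 5, 6 and 8. The groups do not overlap because that was a condition for naming these genes; the widest spread is that of wild-type Hbb-b2, from 6.83 to 9.71, and the tightest KLF1-/- group is that of Plek2, from 6.81 to 6.97.

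Csf2rb2, a receptor beta chain for interleukins, had the largest difference on the higher side. It was uniform in wild type at 6.04, 6.07, 5.999 and 5.88, and read 7.33, 8.79 and 8.11 in KLF1-/-. It was 4.23 times higher (difference 2.08, SE 0.30, adjusted p = 0.173), and array 6 was the highest. Its sequence resembles that of Csf2rb, so which of these genes gave the signal is uncertain. Gadd45a, induced by DNA damage and other stress, read 7.85, 8.42, 7.92 and 7.97 against 9.22, 9.95 and 9.32, a difference of 1.45 (SE 0.23, adjusted p = 0.173). Cited2, a coactivator that binds CBP and p300, was bright and read 10.50, 10.86, 10.44 and 10.72 against 11.48, 12.50 and 12.01, a difference of 1.37 (SE 0.25, adjusted p = 0.300). Its second probe set was also higher without overlap, by 0.44.

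Mkrn1, a RING ubiquitin ligase, read 9.42, 9.79, 9.19 and 9.11 in wild type and 10.81, 11.48 and 10.76 in KLF1-/-, 3.12 times higher (difference 1.64, SE 0.24, adjusted p = 0.173). All 4 of its other probe sets were higher without overlap, by 0.81 to 1.51, more such probe sets than for any other of the 27 named genes. Trim10, a RING protein of late erythroid cells, read 8.71, 9.78, 9.15 and 9.39 against 10.11, 10.93 and 9.97, a difference of 1.08 (SE 0.30) with groups 0.18 apart. Otub2, a deubiquitinating enzyme, read 6.74, 6.90, 6.25 and 6.22 against 7.93, 8.18 and 7.22, a difference of 1.25 (SE 0.27, adjusted p = 0.655). Its dim second probe set gave 0.04.

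Several higher genes are best known from other tissues. Btn1a1, butyrophilin, a milk fat membrane protein, read 6.42, 6.36, 6.71 and 6.79 against 8.74, 7.78 and 8.21, which was 3.19 times higher (difference 1.67, SE 0.24, adjusted p = 0.173). Reln, reelin, a secreted protein of neuronal migration, read 8.98, 9.25, 9.60 and 9.21 against 10.63, 10.37 and 10.50, a difference of 1.24 (SE 0.18, adjusted p = 0.173). Reln was the most even of the higher genes in KLF1-/- (SD 0.13, n = 3), and its groups were 0.77 apart. Cntnap2, a neuronal adhesion protein, read 7.63, 8.26, 7.66 and 8.08 against 8.91, 9.31 and 9.11, a difference of 1.20 (SE 0.21, adjusted p = 0.295). The dim other probe sets of Btn1a1 and Cntnap2 differed by −0.05 to 0.24, with overlap, so these genes rest on 1 probe set each.

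Fermt3 (kindlin-3, an integrin activator of blood cells) read 9.24, 8.83, 9.24 and 8.22 against 10.21, 10.81 and 9.92, a difference of 1.43 (SE 0.30, adjusted p = 0.613). Both other Fermt3 probe sets leaned the same way, by 0.88 without overlap and 0.77 with overlap. Phlda1, a pleckstrin homology-like protein, read 9.26, 9.44, 8.66 and 8.38 against 9.79, 10.46 and 9.89, a difference of 1.11 (SE 0.29). The remaining genes were modest in level: Nrip3 was 5.78 to 6.28 in wild type and 7.05 to 7.76 in KLF1-/- (1.25, adjusted p = 0.300), with 2 other probe sets higher by 0.70 and 0.63 and no overlap. Tpd52l1, of the tumour protein D52 family, was 6.35 to 7.03 against 7.64 to 8.11 (1.11, adjusted p = 0.535). Fam214b was 6.65 to 7.37 against 7.91 to 8.42 (1.06, adjusted p = 0.594).

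The naming threshold fell within a continuous run of values. Just inside it were Fam214b at 1.06 and Tfrc at −1.07. Just outside it, with no overlap, were Bmp2k at 1.00, marginally under 1 before rounding, Grb10 at 0.98, Ssbp2 at 0.97 and, on the lower side, Clec2h at −0.93. Of the 27 named genes, 13 had a single probe set and 14 had others. Of those 25 other probe sets, 24 had the same direction as the brightest and 11 of them also had no overlap. By brightest probe set, 1.53% of all genes were lower and 1.6% higher with no overlap. Mkrn1 and Nrip3 held the most of those 11. All other probe sets of Adcy7, Btn1a1, Cntnap2, Kcnn4, Mgst3, Otub2 and Pklr overlapped. Some same-direction differences were near 0, such as 0.04 for Otub2 and −0.06 for Tfrc.

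The 3 KLF1-/- arrays were not alike in these genes. Array 6, the array with the widest spread of values, was the farthest from wild type in 11 of the 15 higher genes and in 5 of the 12 lower ones, but it was also the nearest in 5 of those 12. Array 5 was the nearest to wild type in 7 of 15 and in 6 of 12. Leaving out array 6 kept 12 of 15 higher and 12 of 12 lower genes at a difference of at least 1, and leaving out array 5 kept 14 of 15 and 9 of 12. The sign cannot change for genes chosen without overlap, so only the sizes are informative here.

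**Figure D4:**
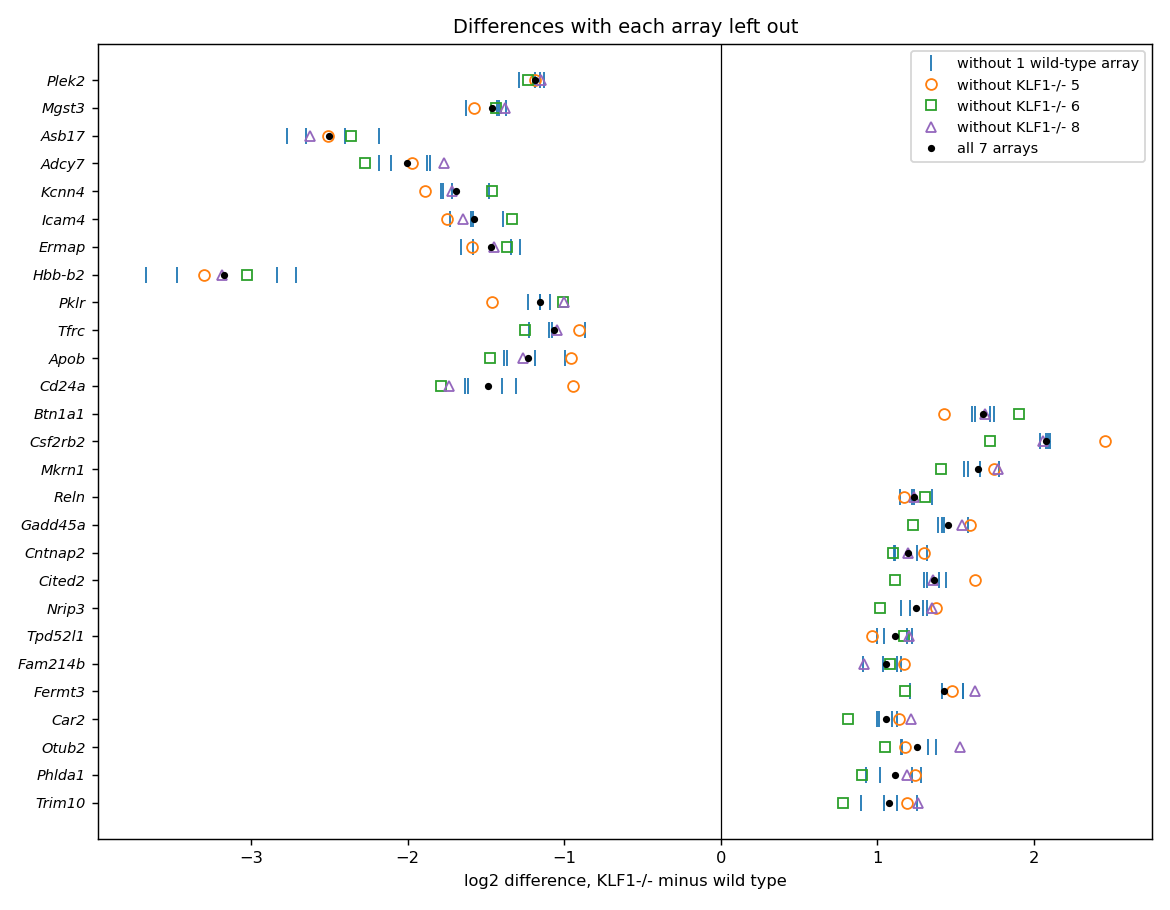
The log2 difference of each of the 27 named genes is shown with all 7 arrays (black points) and with 1 array left out (blue ticks for each wild-type array, open symbols for KLF1-/- arrays 5, 6 and 8). The values stay close for Plek2 and Reln and move most for Hbb-b2 with the wild-type arrays and for Cd24a, from −1.49 to −0.94, without array 5.

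In cell cycle lists KLF1-/- array 6 was the highest array. In the mitosis list 27 of 28 genes lay above 0 (47% over all genes) with a median of 0.27, but the list mean was 9.73 on KLF1-/- array 6 against 8.97 and 8.83 on arrays 5 and 8 and 8.58 to 9.25 in wild type. Without array 6 the median was 0.03. Racgap1 (0.77) and Tpx2 (0.84), both of the mitotic spindle, were higher without overlap, and Ccnb2, a mitotic cyclin, was higher with overlap (0.94). Of 29 DNA replication genes 21 lay above 0 with a median of 0.17, which was −0.06 without array 6. Mcm3, a helicase subunit (0.97), read 9.84 on array 6 against 8.80 and 8.18. None of 25 G1 and S phase regulators passed an unadjusted p of 0.05. Their median was 0.05, or −0.08 without array 6, and Ccnd2, Ccnd3 and Ccne2, cyclins of that phase, differed by 0.66, 0.61 and −0.57 with overlap.

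Of 24 erythropoietin and Kit pathway genes 15 lay above 0 (47% over all genes) with a median of 0.12. Bcl2l1 and Irs2, an insulin receptor substrate (0.61), were higher without overlap. Among 25 survival and p53 genes 17 lay above 0 with a median of 0.10. Gadd45a and Bcl2l1 passed an unadjusted p of 0.05, both higher (1.39% over all genes). For antioxidants, Gclm, a subunit of the enzyme that starts glutathione synthesis (0.89), and Prdx3, a mitochondrial peroxiredoxin (0.67), were higher with overlap, both highest on array 6. The list's median was −0.03.

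Myc and growth lists stayed near the centre of all genes. In the Myc network 7 of 14 genes lay above 0, and none passed an unadjusted p of 0.05. Ribosome biogenesis genes known as Myc targets had 15 of 35 above 0 and a median of −0.04, and cytosolic ribosomal proteins had 13 of 39 above 0 and a median of −0.10. None of these passed an unadjusted p of 0.05, nor did any of 23 heat shock and chaperone genes (median −0.06). Of 19 organelle clearance genes only Ulk1, the kinase that starts autophagy, was past it, at 0.39 without overlap. Over all genes 1.39% were higher at that p.

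Markers of other blood and yolk sac cells were compared in the same manner. Megakaryocyte and platelet genes, of the lineage that shares a progenitor with red cells, had 18 of 25 above 0 (47% over all genes). Their median was 0.15. Itga2b, the platelet integrin, was 6.87 to 7.13 in wild type and 7.23 to 7.74 in KLF1-/- (0.46), and Thbs1, thrombospondin, was 5.01 to 6.10 against 6.25 to 6.50 (0.66). These were the 2 genes past an unadjusted p of 0.05, both higher (1.39% over all genes). Pf4, a defining platelet chemokine that was bright at 10.42 to 11.84, differed by 0.38 with overlap. The list mean was 7.01 to 7.21 in wild type and 7.21 to 7.35 in KLF1-/-. Whether this moved with the higher genes such as Fermt3 was not tested. Progenitor genes had 12 of 21 above 0 and a median of 0.01.

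Macrophage genes had a median of −0.02 with 12 of 26 above 0, and C1qc was lower by 0.39 at a level close to the bottom of the range. Endothelial genes had 14 of 23 above 0 with a median of 0.04, and mesenchymal and mesothelial genes 11 of 27 with a median of −0.02. None in the latter pair passed an unadjusted p of 0.05. List means overlapped between genotypes for macrophage (6.41 to 6.76 against 6.48 to 6.56), endothelial (7.23 to 7.56 against 7.40 to 7.66) and mesenchymal genes (8.64 to 9.32 against 8.76 to 9.29). The part of these cells in the differences above was not tested.

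**Figure D5:**
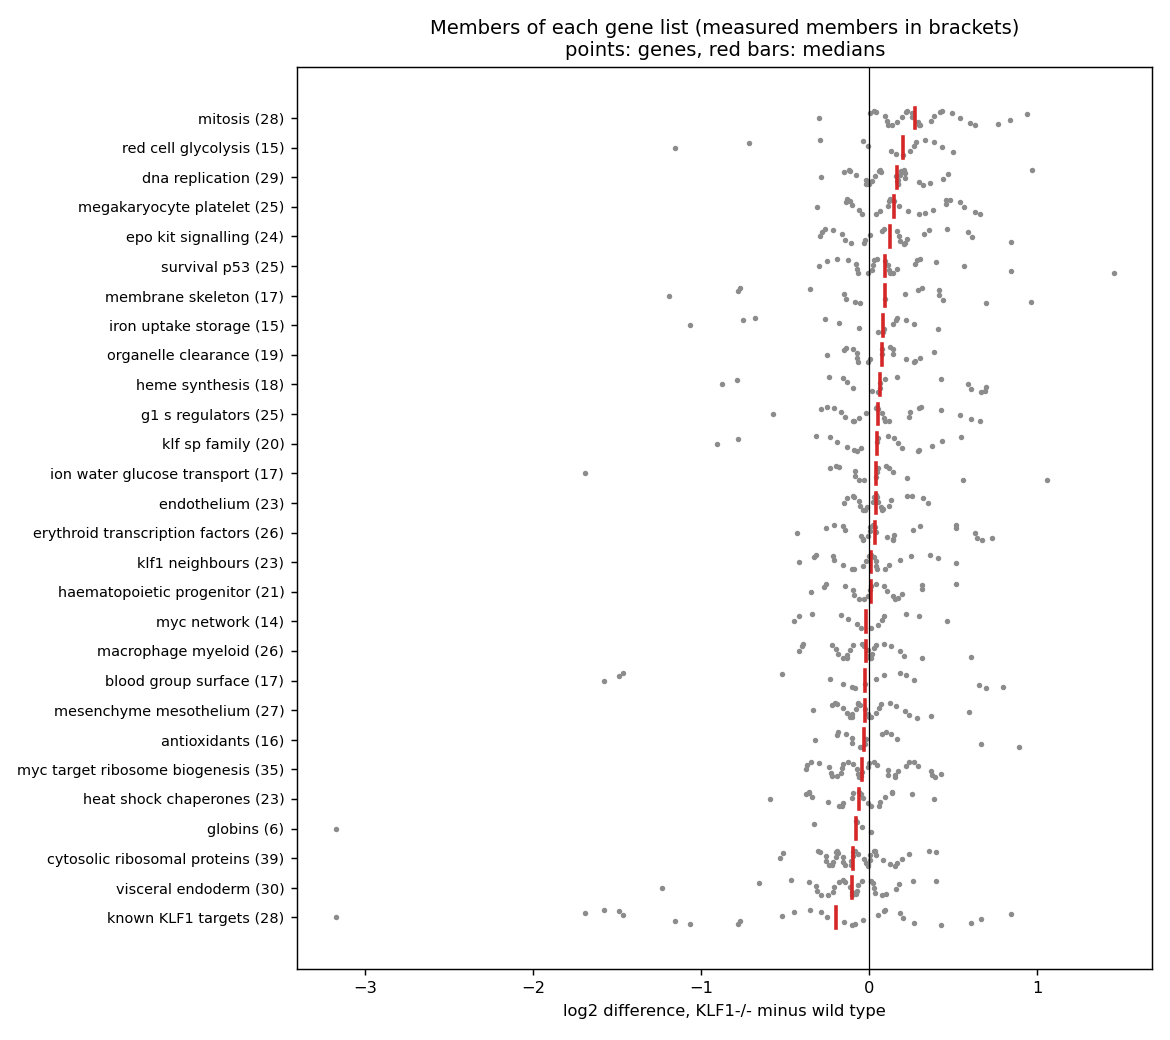
Each grey point is the log2 difference of a measured member of a gene list, KLF1-/- minus wild type, and each red bar is the list's median; the number of measured members stands in brackets. Known KLF1 targets have the lowest median, −0.20, and mitosis the highest of the lists drawn, 0.27, which falls to 0.03 without KLF1-/- array 6.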

How the data were processed

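RNA was measured on Affymetrix Mouse expression arrays, 1 per sample. Per the submitters' processing notes, which name GCOS, RMA, affy and limma without versions, the authors deposited log2 expression values per probe set, which were used as they are. RMA shrinks the differences of dim probe sets, and its usual normalization removes shifts that most genes share. The interquartile range still ran from 2.40 on wild-type array 3 to 3.12 on KLF1-/- array 6. Differences in spread between arrays therefore remained in the values used. No genome build is stated for the probes.

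Of 22690 probe sets, 64 were controls, 20380 were paired with 1 gene by the platform annotation, 691 with several and 1555 with none. Gene IDs of 20351 were found in the RefSeq table of assembly GRCm38.p6, which changed 0 symbols. Each gene was represented by the probe set with the highest mean over the 7 arrays. The 4 wild-type and 3 KLF1-/- arrays were compared by lmFit and eBayes (two-sided) of limma 3.58.1 under R 4.3.3, with adjustment over all 12393 genes. No dim genes were removed. The number of arrays limits the precision: the median SE was 0.22. No arrays were copies of each other (correlations 0.953 to 0.992).

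The genes named are Klf1, Klf2 and Myc, then, per direction up to 15 genes, called ones first and then those at least 1 log2 unit apart with no overlap, ordered by p, and up to 4 members of each list by p, with Xist of the sex-linked list. Exceptions are marked. The members, the 29 lists (678 genes, 584 measured) and the rule were chosen with earlier results of these data known. The fit was checked on simulated data. Alternatives changed the normalization, which probe sets stood for a gene, the lowest mean level kept, the variance model, the weight of each array, a covariate from Gapdh and the arrays used; 2 of them, named as added, were chosen after seeing the data. Python 3.11.15, pandas 2.3.3, numpy 2.4.6, scipy 1.17.1 and matplotlib 3.10.9 were used.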

Additional observations from a re-analysis of the deposited data

Results flagged for a closer look

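In 11 of 131 groups of 4 wild-type arrays, 1 array stood apart from the other 3 by Dixon's criterion (a gap too large a part of the group's range); chance alone gives about 1 in 20. Wild-type array 4 was low in Hbb-bh1 (14.15, against 14.64 to 14.71 on the others), Cat, catalase (11.83, against 12.49 to 12.51), Nfe2 (5.86, against 6.57 to 6.67) and Sp3 (9.05, against 9.62 to 9.69). Array 3 was low in Hhex (7.01, against 7.69 to 7.70) and Pim2, a kinase (6.73, against 7.05 to 7.09). Array 2 was high in Ccnb2 (8.81, against 8.09 to 8.16) and low in Hspa4, a chaperone (10.63, against 10.94 to 10.95). Array 1 was high in Ctss, a macrophage protease (7.55, against 5.97 to 6.20), and Emcn, an endothelial protein (4.81, against 4.57 to 4.60), and in the 3′ excess of Gapdh (5.28, against 4.13 to 4.22). The group of 3 KLF1-/- arrays was too small for this criterion.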

How the results depend on the processing

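No gene was called under the reported settings (0 lower, 0 higher), and the alternatives that called any were 3. Quantile normalization called 2 higher genes, Gadd45a and Mkrn1. Array weights called 7 lower (Adcy7, Asb17, Hbb-b2, Icam4, Kcnn4, Mgst3, Plek2) and 8 higher genes (Btn1a1, Cited2, Cntnap2, Csf2rb2, Fam214b, Gadd45a, Mkrn1, Reln), and with a larger prior, added after seeing the data, 7 and 7, without Fam214b. The weights ran from 0.28 for KLF1-/- array 6 to 4.96 for array 8 and their fit did not converge, so array 8 counts most in these calls. Genes at an unadjusted p under 0.05 were 81 lower and 172 higher; lower genes numbered 159 with quantile normalization, 50 with genes of mean at least 6, 703 with array weights, 565 with the larger prior and 131 with the Gapdh covariate, and higher genes 390 and 322 with the weights. Leaving out 1 array gave 57 to 274 lower and 112 to 308 higher genes, 274 without wild-type array 4 and 308 without wild-type array 2; without KLF1-/- array 6 there were 137 lower and 112 higher, without wild-type array 1, 113 higher. The cause was not tested. Of 432 alternative values of the 27 leading genes, 401 kept their side of the threshold and 31 passed it; averaging all probe sets made Mgst3, Adcy7, Kcnn4, Hbb-b2, Pklr, Tfrc, Btn1a1, Cntnap2, Cited2 and Otub2 over 1.5 times smaller. Of 464 list medians, 447 stayed within the spread between arrays, and that of known targets was −0.33 without KLF1-/- array 5.

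Among other named genes 20 of 1601 values, in 10 genes, changed sign, all of them uncalled. With 1 array left out, the differences ranged from −0.522 to 0.0559 for Hba-a2, −0.144 to 0.0244 for Hba-a1, −0.211 to 0.0229 for Hbb-bh1, −0.361 to 0.0088 for Cat, −0.111 to 0.563 for Becn1, −0.242 to 0.659 for Lyve1, −0.0142 to 0.472 for Bmp4 and −0.0511 to 1.51 for Eif2s3y. Averaging all probe sets gave 0.118 for Cat, 0.159 for Ppat and −0.0421 for Atg5. Array weights gave −0.0738 for Atg5, −0.135 for Lyve1 and −0.0586 for Bmp4, and the larger prior −0.0302, −0.134 and −0.0415. Without the 2 arrays of widest interquartile range, also added after seeing the data, Hba-a1 was at 0.0176, Lyve1 at −0.0029 and Eif2s3y at −0.125. No paired analysis was possible because the labels link no wild-type pool to a KLF1-/- pool, by litter or otherwise. Signals near the bottom of the range limit Hbb-b2, Asb17, Hba-a1, C1qc and Cybb, and the top of the range limits Hbb-bh1.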
